A study of Homo sapiens with 18 samples.

Results

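HEK293T is a human line derived from embryonic kidney. When ATG12 is deleted from it, the small RNAs of the released vesicles and those of the cells themselves can change together or apart. The measure described here is the vesicle change minus the cell change, over 4 groups of 3 libraries: vesicles of ATG12-/- cells, vesicles of wild type cells, ATG12-/- cells and wild type cells. These are 12 of the 18 libraries of the series, chosen by their labels alone, and the other 6 come from vesicles and cells of an ATG7-/- clone. All cultures were grown with fetal bovine serum and then kept 24 h without serum. The ATG12-/- line is 1 clone, and the 3 libraries of a group are labelled biological replicates. Of 2462 small RNA features in the deposited table, 890 reached 10 normalised reads in at least 3 of the 12 libraries and were tested. The other 1572 were not tested.

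ATG12 is joined to ATG5, and their complex with ATG16L1 helps attach LC3 and its relatives to lipids of membranes, a step in which ATG7 acts earlier as the activating enzyme. The study asks how this LC3 conjugation machinery selects RNA-binding proteins, and with them RNA, for extracellular vesicles (EVs), small membrane-bound particles that cells release. Most of the RNAs counted here work inside the cell. Small nucleolar RNAs (snoRNAs) guide how ribosomal RNA is modified and cut. Small Cajal body RNAs (scaRNAs) guide how spliceosomal RNAs are modified, and tRNAs carry amino acids.

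Each value is in normalised reads, the reads of a feature divided by 1 size factor per library. The vesicle change is log2 of ATG12-/- over wild type in vesicles, and the cell change is the same ratio in cells. The vesicle change minus the cell change is called the compartment difference. All 3 come from 1 limma fit on log2 (normalised reads + 1), with a standard error (SE), and adjusted p-values cover the 890 features. A feature is called when the adjusted p is under 0.05. Values are relative within a library, so fewer vesicles or cells and less RNA in each cannot be told apart.

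The vesicle libraries held 1881080 to 2764546 reads on these features and the cell libraries 1229796 to 1804089. The chi-square per degree of freedom between replicate libraries, which is about 1 where only counting noise separates them, was 5.41 to 89.4, and the 2 highest values both involve replicate 1 of wild type vesicles. Without that library 187 features were called higher and 159 lower. The ATG12 and ATG7 mRNAs are not analysed here, so the knockout label could not be checked, and no small RNA defines HEK293T. Clone and genotype cannot be told apart.

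Most vesicle changes that were called in ATG12-/- cultures were not called as a change of the cells. In vesicles, 202 features rose (22.7%) and 221 fell (24.8%). In cells, 67 rose (7.53%) and 170 fell (19.1%). The compartment difference was called higher for 140 features (15.7%) and lower for 124 (13.9%). Of the called vesicle changes, 110 higher ones (12.4% of the features tested) and 105 lower ones (11.8%) had a compartment difference of the same sign. Among these 215 features the cells were not called for 172, changed in the same direction but less for 19, and changed in the opposite direction for 24. A further 101 features (11.3%) were called in both compartments in 1 direction with no called compartment difference, 35 higher and 66 lower. Over all features, the ATG12-/- and wild type values do not overlap for 51.6% in vesicles and for 46.7% in cells, so single pairs of groups that do not overlap are common. For 42 features the call came from the cells with a called compartment difference and no vesicle call.

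**Figure D1:**
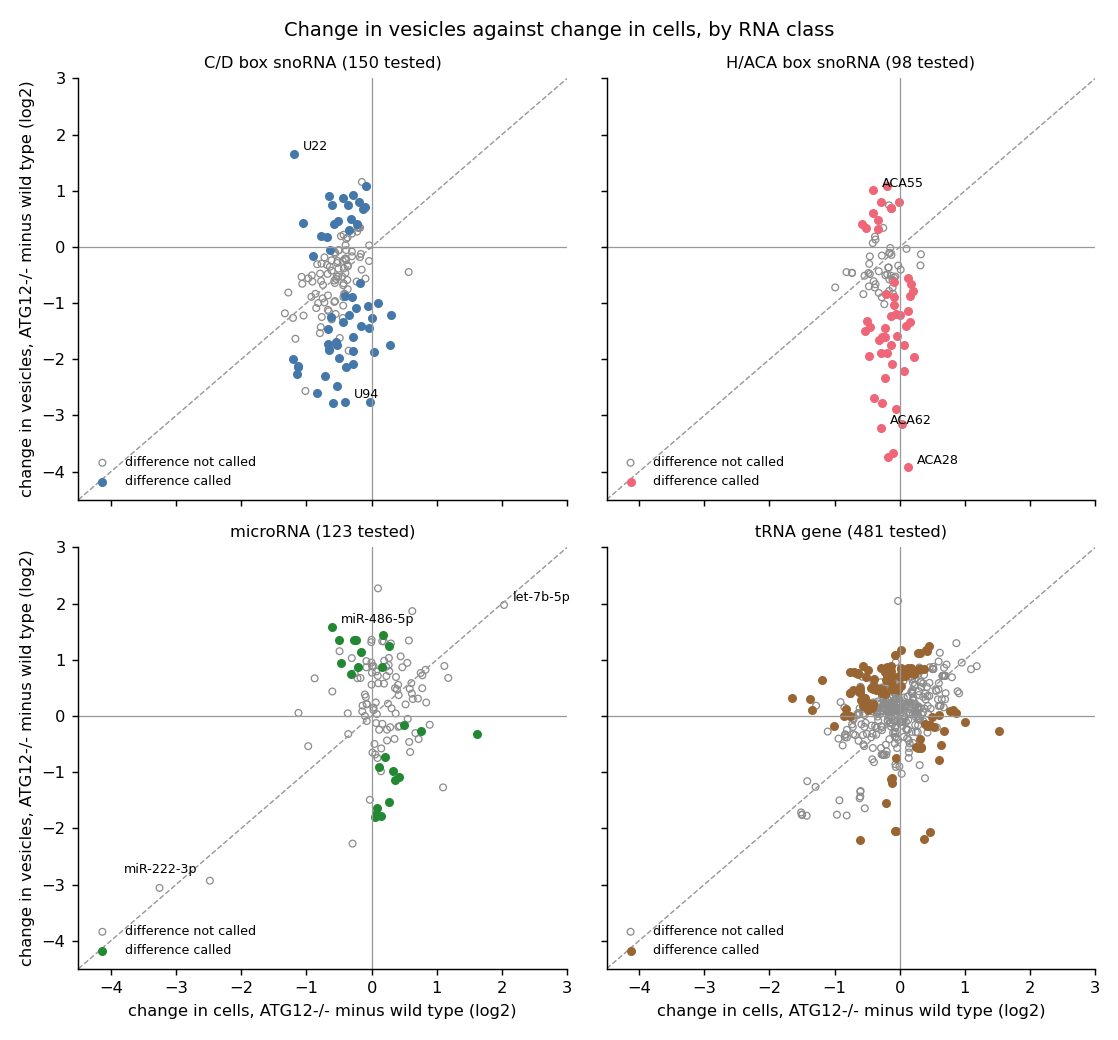
Vesicle change (vertical axis, log2) against cell change (horizontal axis, log2) of ATG12-/- over wild type for 4 RNA classes. Each point is 1 feature, filled where the compartment difference was called, and the dashed line marks equal changes. Called H/ACA box snoRNAs run down the vertical axis to ACA28 at a vesicle change of -3.92, while miR-222-3p lies close to the line of equal changes.

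The split of calls depended on how the libraries were scaled, and this bears on every higher call below. As deposited, 53.0% of the called compartment differences were higher, and the median over all 890 features was 0.10. With library totals the median moved by -0.57 and 7.74% of the calls were higher. TMM factors moved the median by -0.19 with 30.4% higher, and factors computed within each compartment by -0.12 with 41.6% higher. TMM factors from microRNAs alone moved it by 0.05 with 56.5% higher. Counted after these values were seen, 26 features were called higher under all 5 scalings (2.92%) and 103 were called lower (11.6%). These are the features referred to below as holding under all 5 scalings.

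**Figure D2:**
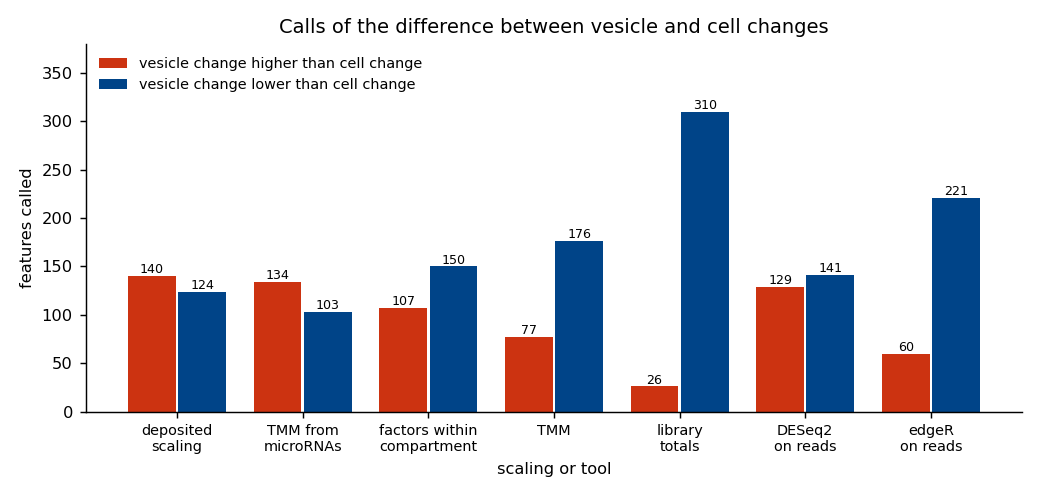
Number of features (vertical axis) whose compartment difference was called higher or lower, for 5 scalings tested with limma and for 2 count tools on the recovered reads. Lower calls range between 103 and 310, while higher calls range between 26 and 140.

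H/ACA box snoRNAs, which guide the change of uridine to pseudouridine in ribosomal RNA, fell in vesicles, with a change in the cells that was smaller and depended on scaling. Of 98 tested, 40 had a lower compartment difference and 11 a higher one, against 13.9% and 15.7% of all features. The class median was -0.66 for the vesicle change, -0.19 for the cell change and -0.48 for the compartment difference, against 0.04, -0.13 and 0.10 over all features. Lower calls numbered 35 to 65 under the 5 scalings, and 35 of the 40 held under all 5. In cells 18 of the 98 were called lower as deposited, 49 with TMM factors from microRNAs (median cell change -0.46), 7 with TMM factors, 7 with factors within each compartment and 2 with library totals (median 0.04). The tested members are 98 of 108 in the table, and the other 10 stayed below the minimum.

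ACA28 (SNORA28, in an intron of EIF5 on chromosome 14) had the lowest compartment difference of the 890 features. It had 38.6, 35.8 and 35.8 normalised reads in ATG12-/- vesicles, against 441, 618 and 679.9 in wild type vesicles. In cells ACA28 had 274, 245 and 266 in ATG12-/-, against 222, 259.9 and 242 in wild type. The vesicle groups do not overlap, with every ATG12-/- library far below the wild type ones, while the cell groups overlap. Its compartment difference was -4.04 (SE 0.22, adjusted p = 3.55e-10). ACA62 (SNORA50C, on chromosome 17 within SNHG25) had 199, 194 and 224 normalised reads in ATG12-/- vesicles, against 2340.3, 1537 and 1949 in wild type vesicles. In cells ACA62 had 584, 492 and 535 in ATG12-/-, against 618, 690.0 and 660.0 in wild type. All 3 ATG12-/- vesicle libraries are far below wild type, and the ATG12-/- cell libraries lie just below their wild type range. The vesicle change of ACA62 was -3.22 (SE 0.14), the cell change -0.29 (SE 0.14) with an adjusted p of 0.153, and the compartment difference -2.93 (SE 0.20, adjusted p = 1.05e-08).

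Their sequences are shown because they are among the class members with the lowest compartment differences. The capitals mark the ACA trinucleotide that defines the class, searched on the RNA strand at 2 to 4 bases before the 3′ end. It was found in 86.3% of 102 H/ACA box snoRNAs with a GENCODE sequence and in 33 of 38 with a lower call. Both are GENCODE 29 transcripts on GRCh38, ACA28 at chr14:103337849-103337974 and ACA62 at chr17:64146339-64146471, each on the plus strand.
ACA28: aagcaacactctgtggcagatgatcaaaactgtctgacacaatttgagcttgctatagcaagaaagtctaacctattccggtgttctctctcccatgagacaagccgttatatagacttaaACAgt
ACA62: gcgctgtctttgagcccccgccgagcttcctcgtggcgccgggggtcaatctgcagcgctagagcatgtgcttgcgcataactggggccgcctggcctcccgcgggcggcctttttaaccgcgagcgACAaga

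U72 (SNORA72, in an intron of RPL30) and ACA16 (SNORA16A, in SNHG12) followed the same pattern. U72 had 150.3, 146 and 136 normalised reads in ATG12-/- vesicles, against 1847, 1641 and 2028 in wild type vesicles. In cells U72 had 836, 631 and 773 in ATG12-/-, against 696, 868 and 845 in wild type, and the groups overlap. Its compartment difference was -3.55 (SE 0.19, adjusted p = 3.55e-10), and that of ACA16 was -3.19 (SE 0.24, adjusted p = 2.41e-08). ACA50 (SNORA50A, in CNOT1), with 2.65 to 7.54 normalised reads in ATG12-/- vesicles and 37.6 to 56.9 in wild type vesicles, had -2.82 (SE 0.40, adjusted p = 4.11e-05). The compartment difference of ACA37 (SNORA37, in MBD2) was -2.51 (SE 0.29), that of ACA31 (SNORA31, in TPT1) -2.30 (SE 0.21) and that of ACA30 (SNORA30, in SRCAP) -2.27 (SE 0.27), each called. None of these 6 had a called cell change as deposited, though that of ACA31 was called with TMM factors from microRNAs (-0.67, adjusted p = 0.0042), as was that of ACA62 (-0.56, adjusted p = 0.00732). The lower compartment differences of all 6 held under all 5 scalings, edgeR and DESeq2, and without each library in turn.

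A minority of H/ACA box snoRNAs went the other way. ACA55 (SNORA55, in an intron of PABPC4 on chromosome 1) had 1075, 888 and 886 normalised reads in ATG12-/- vesicles, against 487, 452 and 468 in wild type vesicles. In cells ACA55 had 147, 163 and 159 in ATG12-/-, against 209.6, 219 and 194 in wild type. The groups do not overlap in either compartment, with ATG12-/- above wild type in vesicles and below it in cells. The compartment difference was 1.42 (SE 0.18, adjusted p = 1.51e-05) and held under all 5 scalings, while the fall in cells was called as deposited and with TMM factors from microRNAs and not under the other 3. U17b (SNORA73B, in SNHG3), an H/ACA snoRNA needed to cut the precursor of ribosomal RNA, had 3111, 2775 and 2900.0 normalised reads in ATG12-/- vesicles, against 1829, 1832 and 1758 in wild type vesicles. Its cell values of 468 to 506 in ATG12-/- and 507 to 584 in wild type differed by -0.14 (SE 0.11), which was not called as deposited. The cell fall of U17b was called with TMM factors from microRNAs (-0.41, adjusted p = 0.0216). U17b had 0.84 (SE 0.16, adjusted p = 0.000557), and the call was lost with library totals (0.25, adjusted p = 0.269). ACA10 (SNORA10, in RPS2) fell in both compartments, with changes of -0.84 (SE 0.12) in vesicles and -0.56 (SE 0.12) in cells, and had a compartment difference of -0.28 that was not called as deposited (adjusted p = 0.225) and was called with library totals (-0.87, adjusted p = 0.000894).

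C/D box snoRNAs, which guide ribose methylation of ribosomal RNA, changed in the cells as well. Of 150 tested, 85 fell in vesicles and 72 fell in cells, against 24.8% and 19.1% of all features. For 37 of them both falls were called with no called compartment difference, and 36 had a lower compartment difference and 20 a higher one. The class medians were -0.59 in vesicles, -0.50 in cells and -0.02 for the compartment difference. Under all 5 scalings 31 held as lower and 7 as higher, and lower calls numbered 31 to 71. Counts of cell falls depended more on scaling, between 126 with TMM factors from microRNAs and 36 with library totals. The table holds 268 members of the class.

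U8 (SNORD118, on chromosome 17 at TMEM107), needed for maturation of 28S and 5.8S ribosomal RNA, fell in both compartments but more in vesicles. It had 1248, 1256 and 1361 normalised reads in ATG12-/- vesicles, against 11079.7, 7263 and 8549 in wild type vesicles. In cells U8 had 4638, 4551 and 4318 in ATG12-/-, against 7069, 6813 and 6468 in wild type. Neither pair of groups overlaps. U8 changed by -2.78 (SE 0.13) in vesicles and by -0.59 (SE 0.13) in cells, a compartment difference of -2.19 (SE 0.19, adjusted p = 1.95e-07). U94 (SNORD94, in an intron of PTCD3 on chromosome 2), which guides methylation of U6 snRNA, had 34.5, 29.2 and 26.4 normalised reads in ATG12-/- vesicles, against 191, 199 and 233 in wild type vesicles. In cells U94 had 22.5, 14.8 and 14.7 in ATG12-/-, against 26.1, 22.4 and 20.4 in wild type, and the groups overlap. The compartment difference of U94 was -2.35 (SE 0.31, adjusted p = 2.62e-05). U101 (SNORD101, in RPS12) had -2.73 (SE 0.39, adjusted p = 5.43e-05), with 5.66 to 17.9 normalised reads in ATG12-/- vesicles and 63.6 to 99.7 in wild type vesicles. These 3 also held under all 5 scalings.

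U22 (SNORD22, in SNHG1 on chromosome 11), which acts in maturation of 18S ribosomal RNA, had the highest compartment difference of the 890 features. U22 had 8257, 9218 and 11359 normalised reads in ATG12-/- vesicles, against 3505, 2902 and 2714 in wild type vesicles. In cells it had 152, 94.9 and 70.6 in ATG12-/-, against 227, 278 and 197 in wild type. In vesicles every ATG12-/- library lies above the wild type ones, and in cells every ATG12-/- library lies below them. U22 rose by 1.66 (SE 0.21) in vesicles and its cell change was -1.20 (SE 0.21), giving 2.85 (SE 0.30, adjusted p = 2.52e-06). Both opposite calls held under all 5 scalings, with compartment differences of 2.27 to 2.90. U8 and U22 are shown because they are the C/D box snoRNAs with the most reads among those with a compartment difference beyond 2 in size, in opposite directions. The capitals mark the D box, CTGA, searched on the RNA strand within the last 14 bases. The pair of a C box, TGATGA, starting within the first 15 bases and a D box was found in 72.8% of 239 C/D box snoRNAs with a GENCODE sequence, and neither U8 nor U22 holds that C box in this window. Both lie on the minus strand of GRCh38, U8 at chr17:8173454-8173587 and U22 at chr11:62852910-62853035.
U8: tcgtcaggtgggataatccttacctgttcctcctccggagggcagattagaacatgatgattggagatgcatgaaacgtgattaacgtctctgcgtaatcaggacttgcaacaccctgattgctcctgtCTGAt
U22: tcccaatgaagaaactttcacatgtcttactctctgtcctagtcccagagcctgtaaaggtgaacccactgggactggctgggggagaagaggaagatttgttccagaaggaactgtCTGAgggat

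Other C/D box snoRNAs rose in vesicles without a called cell change as deposited or fell mainly in cells. With TMM factors from microRNAs the cell falls of U50 (-0.56, adjusted p = 0.00847), U76 (-0.70, adjusted p = 0.00414) and HBII-82 (-0.93, adjusted p = 0.00808) were called. U50 (SNORD50A, in SNHG5) had 3386, 3139 and 3371 normalised reads in ATG12-/- vesicles, against 2099, 1528 and 1619 in wild type vesicles. Its cell values overlap, and the compartment difference was 1.22 (SE 0.22, adjusted p = 0.000394). U76 (SNORD76, in GAS5) had 799.7, 743 and 801 normalised reads in ATG12-/- vesicles, against 646, 303 and 394 in wild type vesicles, with cell values of 22261 to 26853 in ATG12-/- and 29777 to 39042 in wild type. For U76 the compartment difference was 1.31 (SE 0.28, adjusted p = 0.00153). U59A (SNORD59A, in ATP5F1B) rose by 0.75 (SE 0.16) in vesicles and its cell change was -0.60 (SE 0.16), a fall that was not called with library totals. HBII-82 (SNORD111, in SF3B3), at 23.4 to 30.2 normalised reads in ATG12-/- vesicles and 6.91 to 24.6 in wild type vesicles, had 1.57 (SE 0.41, adjusted p = 0.00706). Its vesicle groups overlap, and its vesicle rise was not called with library totals (0.54, adjusted p = 0.0917). HBII-296B (SNORD91B, in TSR1) had 1.49 (SE 0.30, adjusted p = 0.00121), from a cell change of -1.06 (SE 0.22) and a vesicle change of 0.43 that was not called.

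**Figure D3:**
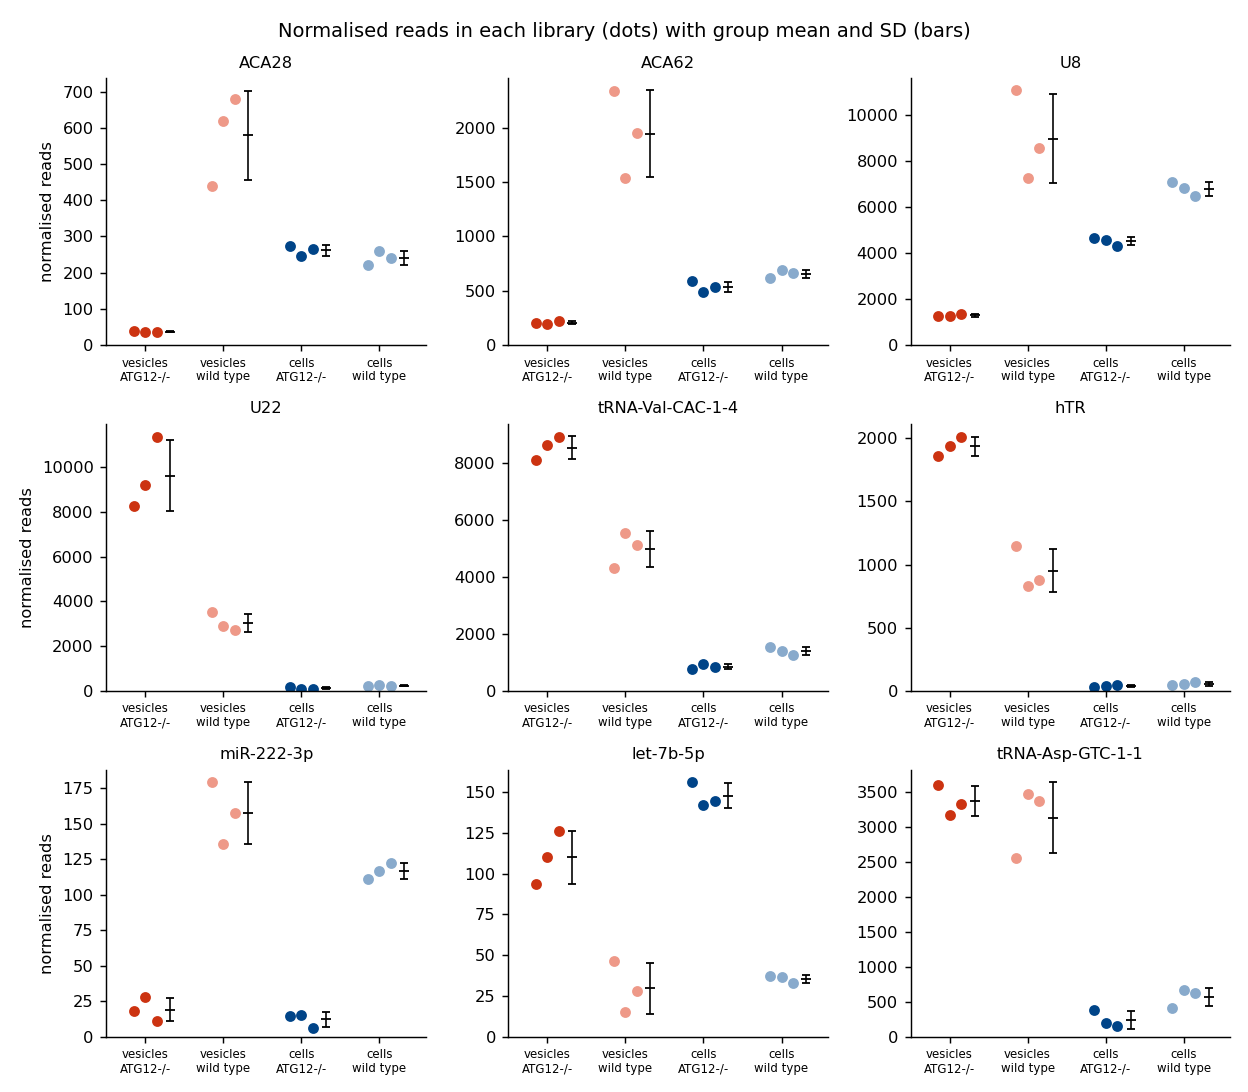
Normalised reads (vertical axes, each starting at 0) of 9 features in the 12 libraries. Dots are replicates 1 to 3 from left to right, and the bars give the group mean and SD (n = 3). ACA28, ACA62 and U8 are low in ATG12-/- vesicles, U22 and Val-CAC-1-4 are high there and low in ATG12-/- cells, and miR-222-3p is low in both ATG12-/- groups.

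SnoRNAs are often made from introns of a host gene. As deposited, of 6 host genes listed 4 held snoRNAs with called compartment differences in both directions and 2 in 1 direction. Only GAS5 and SNHG1 kept calls in both directions under all 5 scalings. Of the 10 in GAS5, U76 and U75 had a higher one with a called rise in vesicles, U78 and U74 a lower one, and 5 were not called. The fifth called member, U44, had 363, 389 and 354 normalised reads in ATG12-/- vesicles, against 439, 368 and 346 in wild type vesicles. In cells U44 had 12701, 14039.6 and 13340.2 in ATG12-/-, against 21463, 19128 and 21669.9 in wild type. The vesicle groups overlap and the cell groups do not, and the compartment difference of 0.58 (SE 0.17, adjusted p = 0.0134) was -0.0023 with library totals. With TMM factors it was 0.39 and also not called (adjusted p = 0.108). In SNHG1, U22 lay at 2.85 beside U26 at 0.73, U25 at -1.75 and U29 at -1.16, with 4 others not called. U26 had 6847, 6475 and 6903 normalised reads in ATG12-/- vesicles, against 8953, 7282 and 6577 in wild type vesicles. In cells U26 had 3767, 5097 and 4988 in ATG12-/-, against 9794, 7683 and 8150.3 in wild type. Its call was lost with library totals (0.15, adjusted p = 0.597) and with TMM factors (0.54, adjusted p = 0.0583). Of the 4 in SNHG12, ACA16 (-3.19) and ACA44 (-1.03) were lower and ACA61 (0.81) and HBII-420 (0.80) higher. The lower ones held under all 5 scalings and the higher ones did not. In TAF1D, 4 of 8 were lower and 1, ACA40, was higher. Under all 5 scalings 3 of the lower ones held and ACA40 did not. Of the 4 in RPL13A, 2 were called lower and the 4 lay at -1.46 to 0.20. The 3 in ZFAS1 lay at 0.50 to 1.17, and 2 were called higher, of which 1 held under all 5 scalings. Names in these host genes outside the rule were chosen after their values were seen.

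Among 15 entries of snoRNAs needed to cut the precursor of ribosomal RNA, 3 were higher (20.0%) and 2 lower (13.3%), near the 15.7% and 13.9% of all features. The higher ones were U22, U17b and the entry U17, which lies close to U17b in every value, and the lower ones were U8 and the entry U14 (-0.86). U3, the most abundant of them and present as 5 entries, had 135776, 143021 and 170920.0 normalised reads in ATG12-/- vesicles, against 148976, 102482 and 105434 in wild type vesicles. In cells U3 had 12538, 11617 and 11921 in ATG12-/-, against 13650.1, 13003 and 15324 in wild type. The vesicle groups overlap, and the compartment difference of 0.56 (SE 0.21, adjusted p = 0.0513) was not called as deposited. It was called only with TMM factors from microRNAs among the 5 scalings, and when replicate 1 of wild type vesicles, of ATG12-/- vesicles or of ATG12-/- cells was left out. U13 had 0.38 (SE 0.17, adjusted p = 0.111), with a cell change of -0.62 (SE 0.12) that was called. U14A had 0.04 (SE 0.23, adjusted p = 0.911).

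Of 24 scaRNAs, 2 had a higher and 2 a lower compartment difference (8.33% each), below the 15.7% and 13.9% of all features. The higher ones were U93 (1.22) and ACA66 (0.98), and the lower ones U87 (-1.87) and U100 (-1.21). U93 and ACA66 lost their call under at least 1 scaling, and U87 and U100 held under all 5. These 4 were named after their values were seen.

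**Figure D4:**
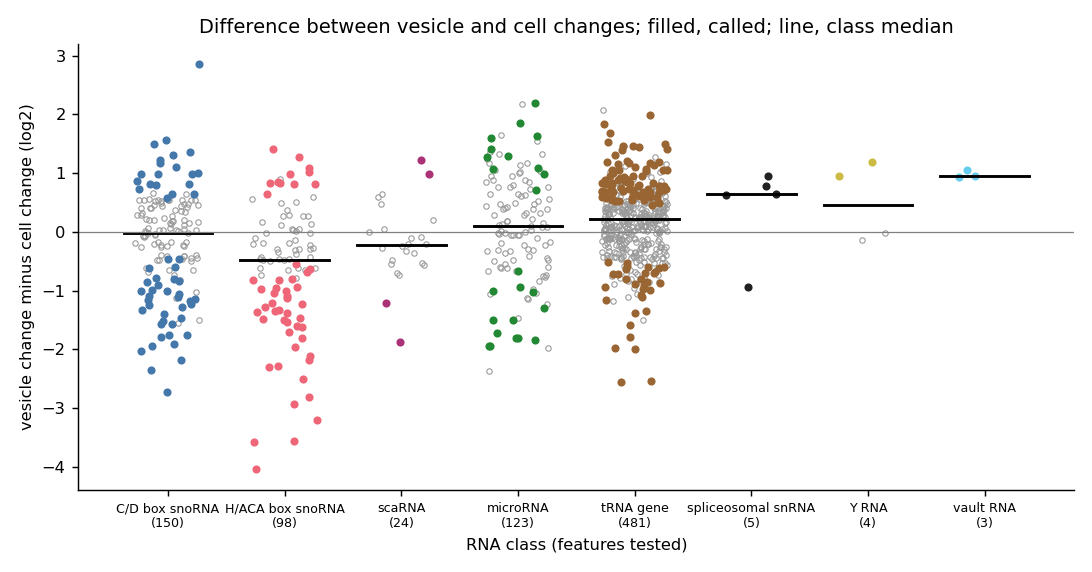
Compartment difference (vertical axis, log2) of every tested feature in 8 RNA classes. Filled points are called, and the black line is the class median, which lies at -0.48 for H/ACA box snoRNAs, -0.02 for C/D box snoRNAs, 0.22 for tRNA genes and 0.95 for vault RNAs.

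In ATG12-/- cultures 5 microRNAs changed in 1 direction in vesicles and cells with no called compartment difference. miR-222-3p and miR-221-3p fell, and let-7b-5p, let-7a-5p and miR-196a-5p rose, the last of these named after its values were seen. miR-222-3p had 17.9, 27.8 and 11.3 normalised reads in ATG12-/- vesicles, against 179, 135 and 158 in wild type vesicles. In cells it had 14.8, 15.3 and 6.29 in ATG12-/-, against 111, 117 and 123 in wild type. Both ATG12-/- groups lie far below wild type, with changes of -3.06 (SE 0.31) in vesicles and -3.25 (SE 0.31) in cells, and the compartment difference of 0.19 (SE 0.44, adjusted p = 0.765) was not called. miR-221-3p, made from the same locus on chromosome X, had 6.89, 3.98 and 5.66 normalised reads in ATG12-/- vesicles, against 57.8, 35.9 and 52.5 in wild type vesicles. Its change was -2.93 (SE 0.34) in vesicles and -2.48 (SE 0.34) in cells, both called. let-7b-5p had 93.8, 110.1 and 126 normalised reads in ATG12-/- vesicles, against 46.3, 15.2 and 27.7 in wild type vesicles. In cells let-7b-5p had 156, 142 and 145 in ATG12-/-, against 36.9, 36.3 and 32.9 in wild type, so that both ATG12-/- groups lie above wild type. It rose by 1.98 (SE 0.27) and 2.03 (SE 0.27) in the same order of compartments, with a compartment difference of -0.06 (SE 0.39, adjusted p = 0.936). let-7a-5p rose by 0.89 (SE 0.15) in vesicles and 1.12 (SE 0.15) in cells, and its compartment difference was called only with library totals (-0.81, adjusted p = 0.00546). Changes of miR-222-3p, miR-221-3p, let-7b-5p and let-7a-5p in both compartments were called under all 5 scalings.

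Mature sequences are shown for these 4 microRNAs, which form 2 pairs with 1 seed each, and for 3 described next that did not move in parallel. The seed (bases 2 to 8, in capitals) largely sets which messages a microRNA binds. miR-221 and miR-222 are known to repress the cell cycle inhibitor CDKN1B, and the let-7 family is known to repress HMGA2 and RAS. The sequences are from RefSeq, GRCh38.p14. They are the annotated ones, and whether the reads at each entry are the mature microRNA was not tested.
miR-222-3p: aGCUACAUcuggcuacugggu
miR-221-3p: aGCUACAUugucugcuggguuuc
let-7b-5p: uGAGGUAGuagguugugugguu
let-7a-5p: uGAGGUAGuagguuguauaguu
miR-17-5p: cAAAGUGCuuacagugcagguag
miR-92a-3p: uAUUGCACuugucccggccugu
miR-4485-3p: uAACGGCCgcgguacccuaa

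Members of the miR-17-92 cluster, transcribed as 1 precursor on chromosome 13, had called compartment differences in both directions. miR-92a-3p is also made from a gene on chromosome X (MIR92A2), and its reads cannot be given to 1 of the genes. Second genes of the other members are not listed here, so this does not set miR-92a-3p apart from them. Of 5 tested members, miR-17-5p (-1.03), miR-19a-3p (-1.80) and miR-19b-3p (-1.50) were lower, miR-92a-3p was higher and miR-18a-5p was not called. The 3 lower ones held under all 5 scalings, and miR-17-5p rose in cells (0.76) without a called change in vesicles. miR-92a-3p, whose seed differs from that of miR-17-5p, had 4083, 4095 and 4275 normalised reads in ATG12-/- vesicles, against 2985, 1878 and 2059 in wild type vesicles. In cells it had 1438, 1643 and 1613 in ATG12-/-, against 1486, 1245 and 1463 in wild type, where the groups overlap. Its compartment difference was 0.71 (SE 0.21, adjusted p = 0.0156), and the call was lost with library totals (0.13).

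Of 123 tested microRNAs, 11 had a higher and 13 a lower compartment difference, below the background of 15.7% and 13.9%. miR-6724-5p, the most abundant entry of this class, had 197949, 219414 and 267734 normalised reads in ATG12-/- vesicles, against 554716, 349265 and 390083 in wild type vesicles. In cells it had 8031, 8161 and 9476 in ATG12-/-, against 7519, 7494 and 8737 in wild type. Its vesicle groups do not overlap, the cell groups do, and the compartment difference was -1.01 (SE 0.23, adjusted p = 0.00326). miR-4485-3p had 46.9, 34.5 and 58.5 normalised reads in ATG12-/- vesicles, against 162, 139.6 and 178 in wild type vesicles, cell values of 28.3 to 35.7 in ATG12-/- and 24.4 to 32.9 in wild type, and a compartment difference of -1.93 (SE 0.31, adjusted p = 0.00015). All 6 tested entries that overlap a snoRNA or scaRNA gene had a negative compartment difference, and 4 of them were called. miR-664a-3p was at -1.80 and the snoRNA it overlaps, ACA36B, at -1.51. miR-664b-3p was at -1.72 beside ACA36 at -1.22, and both arms of miR-6516 were lower while the overlapping scaRNA ACA47 was at -0.54 (adjusted p = 0.0649). Reads of a microRNA and of the snoRNA around it can be the same reads. Whether the reads at miR-6724-5p and miR-4485-3p come from mature microRNAs or from pieces of other RNAs was not tested.

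miR-486-5p, abundant in red blood cells, had 193, 151 and 153 normalised reads in ATG12-/- vesicles, against 56.4, 58.1 and 48.1 in wild type vesicles. In cells it was near the detection limit, with 1.29 to 1.91 normalised reads in ATG12-/- and 1.27 to 5.28 in wild type. The compartment difference of 2.19 (SE 0.48, adjusted p = 0.00194) held under all 5 scalings. miR-150-5p, a lymphocyte microRNA, had 105, 78.2 and 96.2 normalised reads in ATG12-/- vesicles, against 54.9, 27.7 and 32.1 in wild type vesicles, and at most 0.66 in any cell library. It rose by 1.31 (SE 0.41) in vesicles, with a compartment difference of 1.32 (SE 0.58, adjusted p = 0.0943). The 8 microRNAs of blood and liver in the table, 4 of them tested, summed to 278 to 338 normalised reads in ATG12-/- vesicles and 134 to 176 in wild type vesicles. In cells they summed to 35.7 to 65.8 in ATG12-/- and 33.0 to 61.2 in wild type, and miR-223-3p, miR-142-3p and miR-142-5p were at 0 in all 6 cell libraries. Of the 4 tested, 1 had a compartment difference called higher and 0 lower, and the values lay between -1.13 and 2.19. The part of these blood and liver microRNAs in the results was not tested. miR-937-5p, with 181, 306 and 451 normalised reads in ATG12-/- vesicles, against 163, 108 and 84.6 in wild type vesicles and 0 to 1 reads in each cell library, had 1.85 (SE 0.53, adjusted p = 0.0128). The entries miR-937-3p and miR-6845-3p hold nearly the same reads. Neither edgeR nor DESeq2 called any of these 3, and 2 of them lost their call without single libraries. In cells these 3 entries and miR-150-5p had too few reads for a cell change to be measured. Their compartment differences therefore mainly restate the vesicle change. The 3 entries are counted above among the vesicle changes not mirrored in cells.

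tRNA genes had more higher than lower compartment differences, 86 (17.9%) against 32 (6.65%) of 481 tested, where all features gave 15.7% and 13.9%. These calls depended on the scaling. With library totals 13 were higher and 128 lower, and 13 held as higher and 22 as lower under all 5 scalings. The class medians were 0.15 in vesicles, -0.06 in cells and 0.22 for the compartment difference. tRNA genes of 1 sequence share reads. With each isodecoder group averaged, 104 of 728 features of all classes were higher and 115 lower. Without averaging these were 140 and 124 of 890 features of all classes, so neither pair counts tRNA genes alone.

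Valine tRNA genes stood at the upper end. Of 32 tested, 21 had a higher compartment difference and none a lower one, by limma (0 at an unadjusted p under 0.05), edgeR or DESeq2. The higher calls numbered 8 with library totals and 21, 19, 17 and 16 under the other 4 scalings, and 8 held under all 5. Their median was 0.54 in vesicles, -0.31 in cells and 0.89 for the compartment difference. Val-CAC-1-4 had 8091, 8634 and 8891 normalised reads in ATG12-/- vesicles, against 4297, 5537 and 5119 in wild type vesicles. In cells it had 771, 951 and 835 in ATG12-/-, against 1520.0, 1412 and 1242 in wild type. As for U22, ATG12-/- lies above wild type in vesicles and below it in cells with no overlap, and the compartment difference was 1.49 (SE 0.18, adjusted p = 9.49e-06). Both opposite calls held under all 5 scalings. Val-AAC-1-1 rose in vesicles, where it had 6374, 6715 and 6982 normalised reads in ATG12-/- vesicles, against 3180.1, 4219.8 and 3914 in wild type vesicles, and its 48.3 to 66.4 in ATG12-/- cells and 62.1 to 67.5 in wild type cells overlap. Its compartment difference of 1.06 (SE 0.20, adjusted p = 0.000567) was lost with library totals (0.48, adjusted p = 0.102). Val-CAC-8-1 and the entry Gly-CAC-chr1-17 hold nearly the same reads, with compartment differences of 1.40 and 1.41 (SE 0.22 each).

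Other isotypes gave their own patterns. Of 21 proline genes 9 were higher, and of 29 serine genes 11 were higher, and none of either held under all 5 scalings. The 25 glutamate genes had no called compartment difference as deposited (1 at an unadjusted p under 0.05, 1 by edgeR and 0 by DESeq2), while 12 were called lower with library totals (median -0.53), and 12 of them rose in both compartments. Glu-CTC-1-2 had 175664, 182100.0 and 188094 normalised reads in ATG12-/- vesicles, against 107969, 116974 and 108111 in wild type vesicles. In cells it had 8978, 7193 and 6814 in ATG12-/-, against 4506, 5394 and 4610.0 in wild type, so that both ATG12-/- groups lie above wild type. It rose by 0.71 (SE 0.13) in vesicles and 0.66 (SE 0.13) in cells, with a compartment difference of 0.06 (SE 0.18) that was -0.53 and called with library totals (adjusted p = 0.0278). The alanine entries Ala-AGC-13-1 and Ala-AGC-chr6-168, which hold nearly the same reads, fell in both compartments. For Ala-AGC-13-1 the change was -1.75 (SE 0.25) in vesicles and -1.50 (SE 0.25) in cells. Asn-GTT-10-1, with changes of -1.78 and -1.43, and Asn-GTT-12-1, with -1.26 and -1.29, also fell in vesicles and in cells.

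For some tRNA genes the change was called in cells and not in vesicles. The selenocysteine tRNA gene SeC-TCA-1-1, whose product inserts selenocysteine at UGA codons, had normalised reads in cells of 91.4, 164 and 145 in ATG12-/-, against 418, 230.2 and 274 in wild type. In vesicles it had 1825, 2021 and 2163 in ATG12-/- and 796, 1893 and 1371 in wild type, where the groups overlap and the change was 0.65 (SE 0.27) with an adjusted p of 0.0546. Its compartment difference was 1.84 (SE 0.38, adjusted p = 0.00131). In cells Asp-GTC-1-1 had 378, 191 and 145 in ATG12-/-, against 413, 662 and 628 in wild type. Its vesicle groups overlap, and the compartment difference of 1.46 (SE 0.36, adjusted p = 0.005) was lost with library totals (0.88, adjusted p = 0.0751). In cells Lys-CTT-11-1 had 194, 228 and 148 in ATG12-/-, against 108, 103 and 72.3 in wild type, a rise of 1.00 (SE 0.19). In vesicles it had 782, 765 and 792 in ATG12-/- and 1116, 733 and 728 in wild type. For it the compartment difference was -1.11 (SE 0.27, adjusted p = 0.005), and that of Ala-AGC-7-1, which rose in cells by 0.86 (SE 0.13), was -0.81 (SE 0.18, adjusted p = 0.00234). Both held under all 5 scalings. Gly-GCC-2-6 (0.56), Asp-GTC-2-1 (0.43) and Lys-CTT-1-1 (-0.07) had no called compartment difference.

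The 5 spliceosomal snRNAs did not move as 1 group. U5 had 3031, 3287 and 3809 normalised reads in ATG12-/- vesicles, against 6719, 9015 and 8332 in wild type vesicles. In cells U5 had 2650.1, 2338 and 1922 in ATG12-/-, against 3022, 3126 and 2362 in wild type, where the groups overlap. Its compartment difference was -0.94 (SE 0.22, adjusted p = 0.00307) and held under all 5 scalings. U6, which pairs with U2 and U4 in the spliceosome, had 33222, 30192 and 34893 normalised reads in ATG12-/- vesicles, against 16194, 10912 and 13857 in wild type vesicles. The compartment difference of U6 was 0.96 (SE 0.19, adjusted p = 0.000937), and it was not called with library totals (0.37, adjusted p = 0.101). U1 had 288788, 328269 and 384433 normalised reads in ATG12-/- vesicles, against 239007, 197937 and 176443 in wild type vesicles, with 10467 to 11742 in ATG12-/- cells and 9987 to 11547 in wild type cells. The compartment difference of U1 was 0.65 (SE 0.20, adjusted p = 0.0203), that of U2 0.78 (SE 0.20, adjusted p = 0.00665) and that of U4 0.63 (SE 0.19, adjusted p = 0.0173), and all 3 lost their call with library totals (0.07, 0.20 and 0.05). The call of U4 was also lost without replicate 3 of ATG12-/- vesicles, and that of U1 without that library, replicate 3 of wild type vesicles, replicate 2 of ATG12-/- cells or replicate 2 of wild type cells. U7, which acts in 3′ end formation of histone messages, fell in both, with changes of -0.89 (SE 0.16) in vesicles and -1.25 (SE 0.16) in cells, and its compartment difference of 0.36 (SE 0.22, adjusted p = 0.226) was not called.

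Among the 4 Y RNAs, which bind the Ro60 protein, 2 had a higher compartment difference. RNY1 had 10499, 11069 and 11672 normalised reads in ATG12-/- vesicles, against 5569.5, 5089 and 4092 in wild type vesicles. In cells RNY1 had 9069.8, 9245 and 9520.0 in ATG12-/-, against 9888, 9781 and 8371 in wild type, where the groups overlap, and the compartment difference was 1.19 (SE 0.18, adjusted p = 8.76e-05) under the deposited scaling and positive and called under the other 4. RNY3 had 13378, 13429.7 and 13559 normalised reads in ATG12-/- vesicles, against 6655, 5919 and 4933 in wild type vesicles, and 0.95 (SE 0.17, adjusted p = 0.000413), a call that was lost with library totals (0.37, adjusted p = 0.0777). RNY4 had -0.02 (SE 0.19, adjusted p = 0.948). RNY5 fell in both compartments, with changes of -0.67 (SE 0.16) in vesicles and -0.53 (SE 0.16) in cells and a compartment difference of -0.14 (SE 0.22, adjusted p = 0.653). With library totals RNY4 (-0.60) and RNY5 (-0.73) were called lower.

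The 3 vault RNAs tested, of 4 in the table, had a higher compartment difference of 0.93 to 1.06. VTRNA1-1, which is known to bind the autophagy receptor p62, had 336, 361 and 368 normalised reads in ATG12-/- vesicles, against 266, 245 and 254 in wild type vesicles. In cells VTRNA1-1 had 389.9, 291 and 308 in ATG12-/-, against 451, 668 and 389.9 in wild type, where the groups overlap only by replicate 1 of ATG12-/- lying just above replicate 3 of wild type. It rose in vesicles by 0.48 (SE 0.17) and its cell change was -0.58 (SE 0.17), giving 1.06 (SE 0.24, adjusted p = 0.00304). VTRNA1-2 had 0.95 (SE 0.22, adjusted p = 0.00367) and VTRNA1-3 had 0.93 (SE 0.28, adjusted p = 0.0173). For both, the cell changes of -0.73 and -0.61 were called as deposited and the vesicle changes of 0.22 and 0.33 were not. Among the other 4 scalings, the cell change of VTRNA1-3 was called only with TMM factors from microRNAs. All 3 lost their call with library totals, and that of VTRNA1-3 was also lost with TMM factors (adjusted p = 0.0512) and without replicate 2 of wild type cells.

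The telomerase RNA hTR (TERC), which holds the template for telomere repeats and an H/ACA domain, had 1860.0, 1939.9 and 2010.0 normalised reads in ATG12-/- vesicles, against 1145, 831 and 877 in wild type vesicles. In cells hTR had 32.8, 40.1 and 44.1 in ATG12-/-, against 42.7, 51.5 and 68.6 in wild type, where the groups overlap. Its compartment difference was 1.49 (SE 0.25, adjusted p = 0.000222) and held under all 5 scalings. The direction is opposite to that of most called H/ACA box snoRNAs.

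Of the 24 features with opposite calls in the 2 compartments (2.7% of those tested), all rose in vesicles and fell in cells. They comprise 16 tRNA genes, 11 of them for valine, 4 C/D box snoRNAs, 3 H/ACA box snoRNAs and VTRNA1-1. The valine entries Val-CAC-1-1 to Val-CAC-1-6 are copies of 1 isodecoder, and Val-CAC-8-1 and Gly-CAC-chr1-17 hold nearly the same reads. The tRNA counts are therefore not counts of independent features. Under the other scalings 5 (library totals), 8 (TMM), 9 (TMM from microRNAs) and 17 (factors within each compartment) of these 24 were again called in opposite directions. With library totals another 26 features were called in opposite directions, all lower in vesicles and higher in cells.

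Shares of all normalised reads by class were also compared. microRNAs took 6.03%, 6.37% and 7.09% of ATG12-/- vesicles against 17.9%, 12.7% and 14.5% of wild type vesicles, and 2.73% to 2.96% of ATG12-/- cells against 2.00% to 2.31% of wild type cells. Without miR-6724-5p the shares were 0.388% to 0.397% and 0.308% to 0.372% in vesicles of ATG12-/- and wild type cells, and 1.82% to 1.87% and 1.25% to 1.45% in the cells themselves. The compartment difference of the microRNA share was -1.60 on the log2 scale, that of scaRNAs -0.84, that of Y RNAs -0.50 and that of H/ACA box snoRNAs -0.48. Shares are relative to the library total. The median compartment difference of the single Y RNAs was -0.12 with library totals and 0.46 as deposited. For the test, the vesicle and cell library of each replicate number were joined into 1 value, although libraries of 1 number did not deviate together, so its p rests on that joining. Each of these 4 reached p = 0.1, the smallest that a two-sided exact permutation test of 3 against 3 can give, and adjusted over 8 classes they were 0.2. The other 4 classes had adjusted p of 0.32 to 0.4. H/ACA box snoRNAs took 1.92% ± 0.193 of ATG12-/- vesicles and 2.84% ± 0.115 of wild type vesicles, and 5.82% ± 0.462 of ATG12-/- cells and 6.16% ± 0.290 of wild type cells (SD, n = 3 each).

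The ATG7-/- clone, the other knockout of the series, was compared with the ATG12-/- clone directly, over all 18 libraries and 905 features. The ATG12 compartment difference minus the ATG7 one does not contain the wild type values, which cancel. It was called higher for 245 features (27.1%) and lower for 142 (15.7%). C/D box snoRNAs were higher in 119 of 150 and H/ACA box snoRNAs in 83 of 98, with none lower in either class by limma (0 at an unadjusted p under 0.05). Their medians were 1.18 and 1.38. Of 24 scaRNAs 19 were higher, and of 489 tRNA genes 142 were lower and 5 higher, with a median of -0.32. Library totals gave 227 higher and 157 lower calls, and in both snoRNA classes no feature was then called lower.

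Single snoRNAs show the direct comparison. ACA28 had a compartment difference of -4.04 in ATG12-/- and -4.77 in ATG7-/-, and the difference between the knockouts was 0.73 (SE 0.26, adjusted p = 0.0283). ACA31 had -2.30 and -4.05, a difference of 1.76 (SE 0.25, adjusted p = 1.59e-05). Such a difference can come from either compartment. In cells ACA31 had 1117, 877 and 885 normalised reads in ATG7-/-, against 364, 399.8 and 475 in ATG12-/-. In vesicles it had 23.7, 36.2 and 35.8 in ATG7-/-, against 45.5, 42.4 and 50.9 in ATG12-/-. ACA62 had -2.93 and -4.42, a difference of 1.49 (SE 0.23, adjusted p = 4.31e-05). U94 (-2.35 and -2.72) and U101 (-2.73 and -2.75) were not called different, with 0.37 (SE 0.42, adjusted p = 0.536) and 0.02 (SE 0.37, adjusted p = 0.978). U22 had 2.85 in ATG12-/- and 1.41 in ATG7-/-, which differed by 1.44 (SE 0.34, adjusted p = 0.0019). For U26, U50, ACA55, U17b and U44 the compartment difference was above 0 in ATG12-/- and below 0 in ATG7-/-, and the ATG12-/- calls of U26, U17b and U44 were lost with library totals. Those of U26 and U44 were also lost with TMM factors. U26 had 0.73 against -1.70, differing by 2.43 (SE 0.26, adjusted p = 1.42e-06), and ACA55 had 1.42 against -0.57, differing by 1.99 (SE 0.24, adjusted p = 2.61e-06). Among the non-coding RNAs that rose in ATG12-/- vesicles, hTR had 1.49 against 0.21 (difference 1.28 (SE 0.28, adjusted p = 0.00108)), while RNY1 had 1.19 against 0.85 (difference 0.34 (SE 0.23, adjusted p = 0.266), not called). Val-CAC-1-4 had 1.49 against 1.63, a difference of -0.14 (SE 0.23, adjusted p = 0.676), and Glu-CTC-1-2 had 0.06 against 1.22, a difference of -1.16 (SE 0.25, adjusted p = 0.00078).

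**Figure D5:**
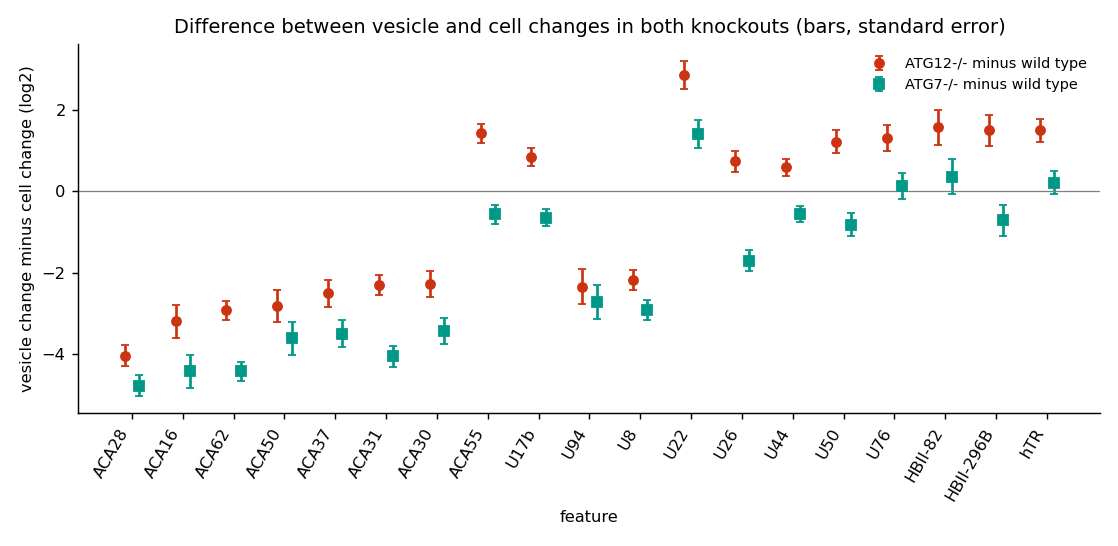
Compartment difference (vertical axis, log2) of 19 RNAs in ATG12-/- (circles, left) and ATG7-/- (squares, right), each against wild type, with standard errors from the fit over 18 libraries. U26, U44, U50, ACA55 and U17b lie above 0 in ATG12-/- and below 0 in ATG7-/-, and ACA28, ACA62, U8 and U94 lie below 0 in both.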

How the data were processed

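Small RNA was sequenced from vesicles and cells of ATG12-/- and wild type HEK293T cultures, 3 libraries per group, and the ATG7-/- libraries entered only the comparison of both knockouts. Per the labels' protocols, libraries were made with a SMARTer small RNA kit, amplified over 12 cycles and read as single 50 bp reads. The submitters' processing notes name DESeq2, bedtools, Bowtie2 2.3 and cutadapt 2.3 and the genome builds hg38 and GRCh38. The handling of reads shared by several gene copies is not given in the sources used here. The deposited unit is a scaled signal: in every library 100% of values are whole multiples of its smallest value within 1e-06, so they were read as reads divided by 1 size factor, with 1 read worth 0.477 to 1.89.

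The main test was limma 3.58.1 (R 4.3.3) with an intensity trend on log2 (value + 1), 4 group means and Benjamini-Hochberg adjustment over all 890 features that reached 10 in at least 3 of 12 libraries, two-sided. The knockout comparison used the same test on 18 libraries. Alternatives were 4 other scalings, other pseudocounts and minimums, each library left out, replicate blocks, averaged tRNA isodecoders, and edgeR 4.0.16 and DESeq2 1.42.0 on the recovered reads. edgeR called 60 features higher and 221 lower, and DESeq2 129 and 141. The main test was also run on simulated counts, and the outcome is not given here. Counting error alone understates the spread between replicates, and PCR copies are not independent molecules. The part of PCR copies in that spread was not tested.

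Named features are the 10 largest called differences in each direction with a mean of at least 50, up to 6 each with opposite, parallel or cell-only calls, 1 per copy group, and a fixed list of known RNAs. The members, lists and this rule were chosen with earlier results of these data known. Features were placed by GENCODE 29 and RefSeq, and tRNA sequences are not shown.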

Additional observations from a re-analysis of the deposited data

Results flagged for a closer look

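Among the named RNAs, 7 had opposite called changes in vesicles and cells of ATG12-/- cultures, with a called compartment difference by limma. They are U22 (2.85), Val-CAC-1-4 (1.49), ACA55 (1.42), Gly-CAC-chr1-17 (1.41), Val-CAC-8-1 (1.40), U59A (1.35) and VTRNA1-1 (1.06). The entries Gly-CAC-chr1-17 and Val-CAC-8-1 hold nearly the same reads. For U22, Val-CAC-1-4 and Val-CAC-8-1 all 3 calls held under all 5 scalings, and for the others at least 1 of the 3 calls was lost under at least 1 scaling. Val-CAC-8-1 and Gly-CAC-chr1-17 hardly differ in this. With library totals their limma cell changes had adjusted p of 0.0499 and 0.0536, on either side of the threshold.

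For 5 snoRNAs the compartment difference was called in opposite directions in ATG12-/- and ATG7-/-, and the direct test between the knockouts was called. The ATG7-/- calls are given as deposited only, and by limma that of ACA55 lay near the threshold (-0.57, adjusted p = 0.0478). The difference between ATG12-/- and ATG7-/- was 2.43 for U26, 2.04 for U50, 1.99 for ACA55, 1.49 for U17b and 1.14 for U44. With library totals the ATG12-/- call was lost for 3 of them: U26 (0.73 as deposited, 0.15 with library totals), U17b (0.84 and 0.25) and U44 (0.58 and -0.0023). The ATG12-/- calls of U26 and U44 were also lost with TMM factors.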

How the results depend on the processing

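The counts of the report depended on scaling more than on any other choice. With library totals 26 features had a higher and 310 a lower compartment difference, and 19 higher and 241 lower vesicle changes were not mirrored in cells. TMM factors gave 77 higher calls and 51 higher vesicle changes not mirrored, and TMM factors from microRNAs gave 68 higher vesicle changes not mirrored. edgeR, which uses TMM factors on the recovered reads, gave 60 higher and 221 lower calls, and 38 higher and 179 lower vesicle changes not mirrored. The difference of U44 was -0.0023 with library totals. Leaving out 1 library gave 108 to 187 higher and 104 to 159 lower calls, 79 to 149 higher and 93 to 144 lower vesicle changes not mirrored, and 216 to 252 higher and 106 to 155 lower calls between the knockouts. Leaving out 1 replicate number moved the share difference of spliceosomal snRNAs between 0.021 and 0.274 and that of vault RNAs between 0.255 and 0.601. Of the comparisons of single named features, 59 lost a call, 25 gained one and 1 reversed, against 2325 with no change of call or direction. The cause of these changes was not tested.

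In the tests of single features the replicate numbers were not taken as pairs, since vesicle and cell libraries of 1 number did not deviate together (r between -0.094 and 0.186, across features). A replicate block by culture gave 144 higher and 125 lower calls, and a block by number 151 and 129. A fixed block by culture gives no separate vesicle and cell changes, so vesicle changes not mirrored in cells could not be counted under it. Class shares were joined by replicate number, where the smallest p is 0.1, and features below 10 normalised reads in most libraries are beyond the depth of these data.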

Other observations

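Compartment differences of tRNA isotypes not described above were mixed, against 15.7% higher and 13.9% lower over all features. Glutamine genes were lower in 4 of 24 tested (16.7%, near that over all features), and lysine genes were higher in 4 (13.3%) and lower in 6 (20.0%) of 30. The lower calls of both isotypes held under all 5 scalings, and none of the higher ones of lysine did. Asparagine genes were lower in 8 of 28 (28.6%), of which 1 held under all 5 scalings. Tyrosine genes were higher in 6 and lower in 3 of 15, and the 3 lower ones held under all 5 scalings. Initiator methionine genes had a median compartment difference of -0.0046 over 9 genes, while elongator methionine genes were higher in 6 of 10 with a median of 0.69, and none of these 6 held under all 5 scalings.

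Length of the snoRNA bore little relation to the compartment difference. Across 147 C/D box snoRNAs Spearman's rho with annotated length was 0.12, and across 97 H/ACA box snoRNAs it was 0.0872. The features share their libraries, so these are descriptions with no test. The median annotated length was 134 bases for H/ACA box snoRNAs with a lower call and 134 bases for those not called.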
